A study of Xenopus laevis with 8 samples.

Results

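Animal cap explants of Xenopus laevis at stage 12.5 were compared with explants at stage 11.5, 2 stages of mid and late gastrulation, by sequencing of polyadenylated RNA. The comparison was defined by the sample titles and rests on 4 of the 8 libraries of the series: stage 12.5 and the earlier stage 11.5 each have 1 library of experiment A and 1 of experiment B. The 4 libraries of stages 9 and 10.5 entered the fit and are given where a gene is followed over the whole series. All explants were of wild-type genotype and came from untreated embryos. They were cut from the animal pole at stage 8, healed in saline and cultured with gentamycin until collection, so that the groups differ in stage alone, as far as the labels say. The labels name the tissue as explanted epidermis and do not say how many explants or clutches went into a library. If A and B were not separate experiments, the p-values measure only the spread between these samples.

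The animal cap is the roof of the blastula, a sheet of pluripotent cells that becomes epidermis when it is cultured without inducers. In the embryo this epidermis is mucociliary: multiciliated cells, ionocytes and small secretory cells arise in the inner layer, move into the outer layer and end up among mucus-secreting goblet cells. Notch signalling between inner-layer cells limits how many become multiciliated cells or ionocytes, and BMP signalling keeps the ectoderm epidermal. During gastrulation many maternal RNAs and some of the blastula competence factors are lost while these programmes start.

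Total counts lay between 34106665 in stage 11.5 B and 42615766 in stage 12.5 B over the 4 libraries compared. Levels are given in CPM, or counts per 1e6 counts of a library, after scaling by TMM, a method that equalises the bulk of genes between libraries, with factors between 0.818 in stage 12.5 A and 0.984 in stage 11.5 B. Single values below are in the order A and B, and genes are named by the authors' symbols, in which .L and .S mark the copies on the long and short subgenomes of this allotetraploid frog. Fold changes are on the log2 scale, stage 12.5 over stage 11.5, with the standard error (SE). P-values are from edgeR's quasi-likelihood test with the experiment letter as a block, with Benjamini-Hochberg adjustment over all 28490 tested genes, and a gene is called at an adjusted p under 0.05. CPM is not divided by gene length, so levels are compared between libraries and not between genes. Since the samples are bulk RNA, a change in the number of cells of a type and a change of RNA per cell cannot be told apart. The gene smad4.1.S took 3.05% of all counts in stage 11.5 B, against between 0.185% and 0.358% in the other 3 libraries compared.

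Of 28490 genes tested, 1306 were called between the stages, or 4.58%. At stage 12.5, 630 genes were higher (2.21% of those tested) and 676 were lower (2.37%). The higher genes included multiciliated cell regulators, secreted goblet cell products, keratins and other epidermal genes and ribosomal proteins. The lower genes included cyclins and other maternal transcripts and the competence factors pou5f3.3.L, pou5f3.3.S, pou5f3.2.S and foxh1.2.L. All 1306 changed with the same sign in both experiments. For 620 of the 630 higher genes both stage 12.5 libraries lay above both stage 11.5 libraries. For 662 of the 676 lower genes both lay below, against 22.3% and 21.4% of all tested genes. The genes were called from these same libraries, so their shared signs and separated stages are no test of the calls. This holds too for each called gene below. The median size of change was 0.91 on the log2 scale in both directions. Changes of at least 2 on this scale were reached by 56 higher and 18 lower genes. The step was larger in A than in B for 416 of the 630 higher and for 434 of the 676 lower genes. Together the higher genes held 211301 and 173034 CPM at stage 12.5, against 121441 and 112772 CPM at stage 11.5. The lower genes held 13670 and 14082 CPM at stage 12.5, against 24447 and 23577 CPM at stage 11.5.

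**Figure D1:**
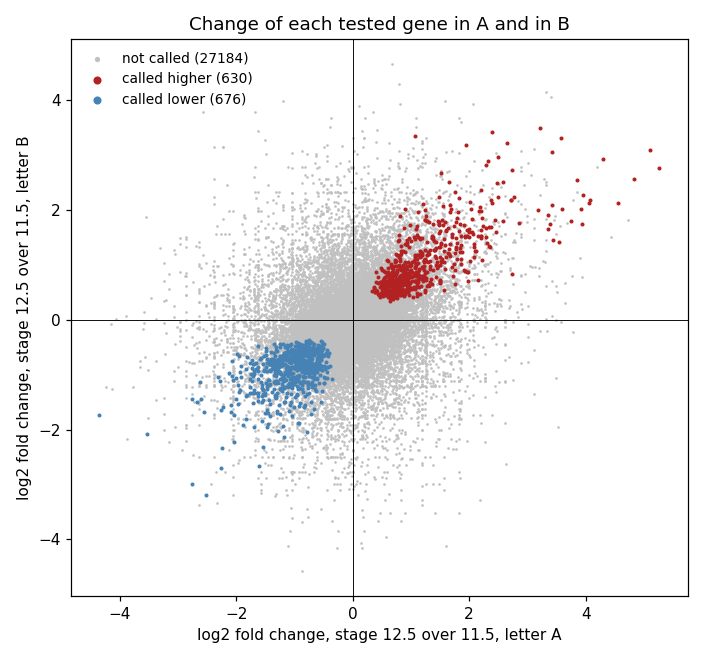
Each point is 1 of 28490 tested genes, with its log2 fold change of stage 12.5 over stage 11.5 in experiment A on the x axis and in experiment B on the y axis. The 630 genes called higher (red) lie at the upper right and the 676 called lower (blue) at the lower left, all with the same sign in A and B.

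These calls depend on the block and on every library of the comparison. Without the replicate block, 0 genes were called by edgeR, with 4246 at an unadjusted p under 0.05, against 6393 with it, and 0 genes were called without stage 12.5 A, with 5504 at an unadjusted p under 0.05. The count was 37 without stage 12.5 B, 39 without stage 11.5 A and 566 without stage 11.5 B, 329 and 364 without A and B of stage 10.5, and 2328 and 2421 without A and B of stage 9, while all 1306 genes kept their sign in each of these fits. These genes were chosen by this step and already had the same sign in A and B, so their kept signs are no test of the calls. Scaling by library size alone put the median of all genes at -0.16, against -0.0030 with TMM, and called 392 genes higher and 1407 lower. Of the 110 called genes that the naming rule takes, 18 were not called with that scaling, all with fold changes above 0: cfap43.L, bbs7.L, ift20.L, ift43.L, cdk1.L, sec61b.L, sec61g.L, p4hb.L, grhl3.L, lef1.L, ncam1.S, epas1.S, cox7c.L, ndufa8.L, rpl27a.S, rpl29.L, rpl36.S and rpl39.S. The limits of the block and of single libraries hold for each call named below, and list medians can be read against the median of all genes. Counts of called list members can be read against the 2.21% called higher and 2.37% called lower over all tested genes. The medians of the ionocyte, Notch, BMP, competence factor, neural, FGF, and mesoderm and endoderm lists changed sign in at least 1 of the 4 fits without a library of the stages compared.

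The largest called rise among genes with a symbol and at least 5 CPM at stage 12.5 was that of cmahp.L, a relative of the mammalian enzyme that hydroxylates sialic acid. It had 9.998 and 4.99 CPM at stage 12.5, against 0.241 and 0.537 CPM at stage 11.5 (log2 fold change 4.13, SE 0.76, adjusted p = 0.0276), and DESeq2 with the same block did not call it. In the authors' deposited table, computed with DESeq2, cmahp.L had a log2 fold change of 2.62 and an adjusted p of 3.61e-10. Next came otog.L, which encodes otogelin, a mucin-related secreted glycoprotein. Its level was 256 and 137 CPM at stage 12.5, against 12.9 and 17.9 CPM at stage 11.5 (log2 fold change 3.54, SE 0.39, adjusted p = 0.0146). Both stage 12.5 libraries were far above both stage 11.5 libraries for these genes, with A above B at stage 12.5. Periplakin, a protein that ties keratin filaments to desmosomes, followed with ppl.S at 19.0 and 11.9 CPM at stage 12.5, against 1.56 and 1.16 CPM at stage 11.5 (log2 fold change 3.49, SE 0.57, adjusted p = 0.0221). The copy ppl.L also rose, with 15.0 and 7.26 CPM at stage 12.5, against 2.71 and 2.03 CPM at stage 11.5 (log2 fold change 2.21, SE 0.47, adjusted p = 0.0401).

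Further rises in this group were spread over enzymes, receptors and regulators. The P-type ATPase relative atp13a-like.S stood at 8.59 and 7.36 CPM at stage 12.5, against 0.751 and 0.835 CPM at stage 11.5, with a log2 fold change of 3.32. The lipase H gene liph.L stood at 16.2 and 5.42 CPM at stage 12.5, against 0.993 and 1.07 CPM at stage 11.5, with a log2 fold change of 3.2. The kit.S gene, for a receptor tyrosine kinase that binds stem cell factor, reached 167 and 89.0 CPM at stage 12.5, against 12.39 and 25.6 CPM at stage 11.5 (log2 fold change 2.83, SE 0.41, adjusted p = 0.0183). In each of these genes the stages did not overlap. The stathmin-domain gene stmnd1.L had 13.9 and 6.37 CPM at stage 12.5, against 2.41 and 0.776 CPM at stage 11.5 (log2 fold change 2.80, SE 0.47, adjusted p = 0.023). The mannose receptor gene mrc1.L had 6.01 and 6.15 CPM at stage 12.5, against 0.966 and 1.04 CPM at stage 11.5, with a log2 fold change of 2.6. The rest of the 12 largest rises were both mcidas copies, foxj1.2.S and otx2.L, which are described with their groups below. Among called genes without a symbol of their own, LOC108701830 had 88.7 and 20.2 CPM at stage 12.5, against 2.25 and 2.92 CPM at stage 11.5 (log2 fold change 4.12, SE 0.56, adjusted p = 0.0177). RefSeq now lists it as tuba1cl.2.L, an alpha tubulin gene. LOC108702929 had 129 and 36.4 CPM at stage 12.5, against 7.57 and 7.94 CPM at stage 11.5 (log2 fold change 3.17, SE 0.42, adjusted p = 0.0159).

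The 12 largest falls were smaller in size. The largest were those of pou5f3.3.S and pou5f3.3.L, copies of the Oct60 gene, a relative of mammalian Oct4 that eggs supply as RNA. The S copy had 8.36 and 8.21 CPM at stage 12.5, against 57.2 and 22.3 CPM at stage 11.5 (log2 fold change -2.22, SE 0.37, adjusted p = 0.023), and the L copy had 17.2 and 16.8 CPM at stage 12.5, against 109 and 47.4 CPM at stage 11.5 (log2 fold change -2.17, SE 0.33, adjusted p = 0.02). At stage 11.5 both copies were more than 2 times as high in A as in B, and at stage 12.5 A and B were close together. The gene foxh1.2.L, for a DNA-binding partner of Smads in Nodal signalling, had 12.19 and 5.49 CPM at stage 12.5, against 37.4 and 35.0 CPM at stage 11.5 (log2 fold change -2.13, SE 0.24, adjusted p = 0.0146). The nuclear export receptor gene xpo6.S, whose product carries actin, had 13.4 and 16.2 CPM at stage 12.5, against 39.4 and 58.4 CPM at stage 11.5 (log2 fold change -1.71, SE 0.18, adjusted p = 0.0146). For these genes both stage 12.5 libraries lay below both stage 11.5 libraries. The mitochondrial peptidase gene immp1l.L had 2.55 and 1.99 CPM at stage 12.5, against 10.8 and 4.12 CPM at stage 11.5, with a log2 fold change of -1.62. The centriolar gene kiaa0586.L, also known as talpid3, had 5.26 and 4.43 CPM at stage 12.5, against 14.4 and 14.5 CPM at stage 11.5, with a log2 fold change of -1.58. The others were grem1.L, patl2.L, ccna1.S, ccna1.L, foxi2.S and dand5.S, given below. Without a symbol, LOC108709196 had 3.01 and 1.59 CPM at stage 12.5, against 8.45 and 6.29 CPM at stage 11.5, with a log2 fold change of -1.71. Xelaev18014048m had 2.65 and 2.02 CPM at stage 12.5, against 6.52 and 8.35 CPM at stage 11.5, with a log2 fold change of -1.67.

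**Figure D2:**
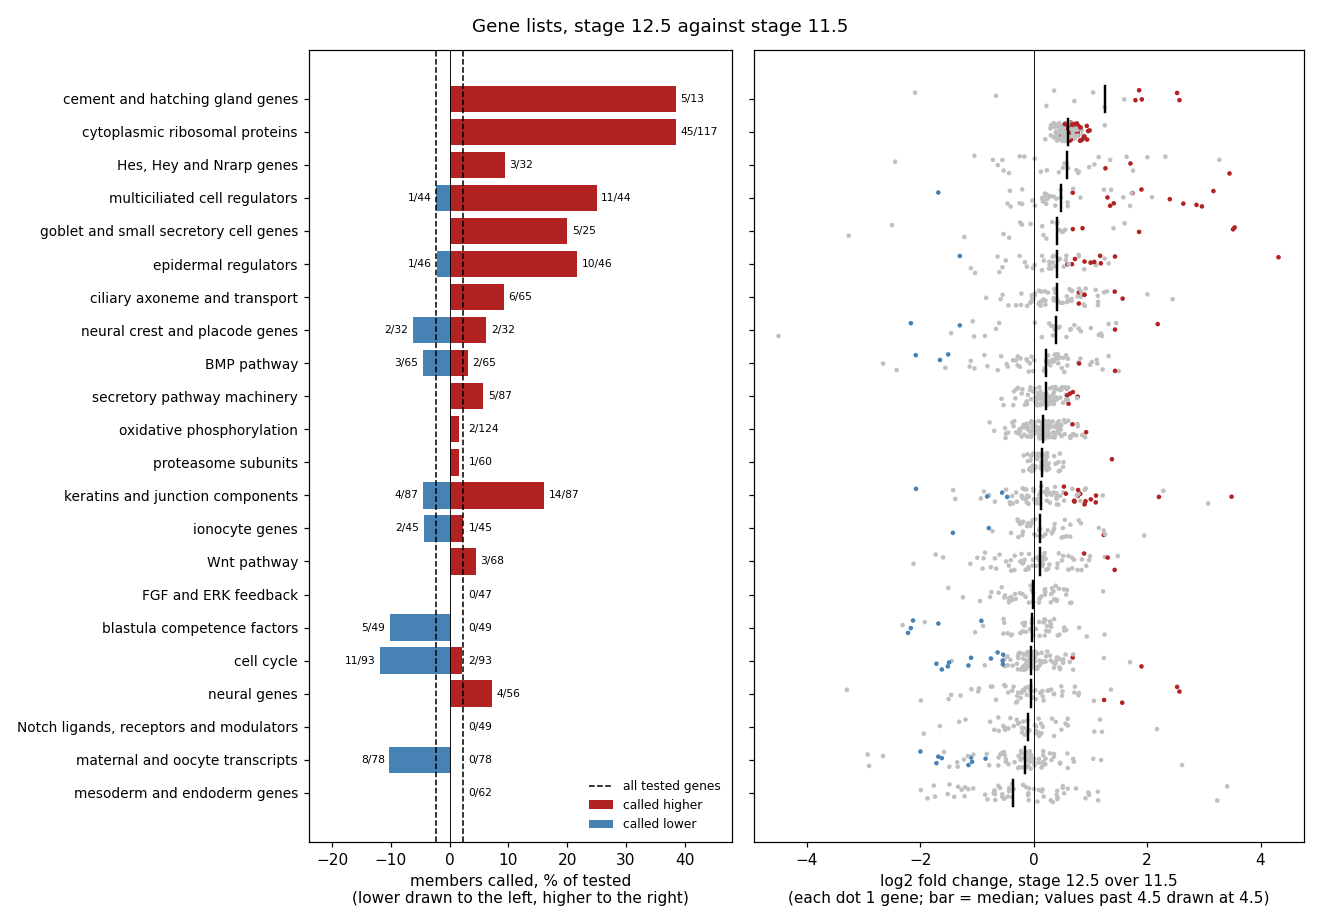
Left, the share of each list's tested members called higher (red, to the right) or lower (blue, to the left) at stage 12.5, in percent, with the counts written beside the bars and the shares over all tested genes (2.21% and 2.37%) as dashed lines. Right, each tested member's log2 fold change of stage 12.5 over stage 11.5 (1 value beyond 4.5 is drawn at 4.5), with the list's median as a black bar, from 1.25 in cement and hatching gland genes to -0.37 in mesoderm and endoderm genes.

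Several regulators of multiciliated cells rose. Of 44 tested members of the list, 11 were called higher and 1 lower, with a median log2 fold change of 0.48. Multicilin, the coiled-coil protein encoded by mcidas, switches on the multiciliated cell programme together with E2F factors. The S copy had 65.9 and 31.2 CPM at stage 12.5, against 2.74 and 7.1 CPM at stage 11.5 (log2 fold change 3.17, SE 0.55, adjusted p = 0.0253). The L copy, listed as mcidas.L_LOC108718385, had 111 and 61.5 CPM at stage 12.5, against 7.19 and 18.3 CPM at stage 11.5 (log2 fold change 2.87, SE 0.46, adjusted p = 0.0208). Stage 11.5 B was above stage 11.5 A in both copies, and stage 12.5 A was above stage 12.5 B, so that the rise was larger in A. The upstream factor gmnc did not pass the test. Its L copy had 101 and 58.5 CPM at stage 12.5, against 44.1 and 47.8 CPM at stage 11.5 (log2 fold change 0.82, SE 0.59, adjusted p = 0.463), and its S copy gmnc.S had at most 0.483 CPM in the 4 libraries. At stage 9, which also entered the fit, gmnc.L had 1.07 and 6.86 CPM, and the part of stage 9 in this result was not tested. In the authors' deposited table gmnc.L had a log2 fold change of 0.67 and an adjusted p of 0.142.

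Several factors that act beside or after multicilin rose too. Foxj1 turns on genes of motile cilia. The gene foxj1.S had 341 and 221 CPM at stage 12.5, against 104 and 126 CPM at stage 11.5 (log2 fold change 1.3, SE 0.29, adjusted p = 0.0458), and the related foxj1.2.S had 37.2 and 19.5 CPM at stage 12.5, against 3.03 and 4.77 CPM at stage 11.5 (log2 fold change 2.97, SE 0.58, adjusted p = 0.0306). The copy foxj1.L had 239.6 and 134 CPM at stage 12.5, against 55.6 and 75.4 CPM at stage 11.5. It missed the threshold (log2 fold change 1.58, SE 0.46, adjusted p = 0.0895). Its stage 9 values, which also entered the fit, were 4.49 and 15.1 CPM, and their part in this result was not tested. Foxn4, a forkhead factor of the same cells, had 28.4 and 10.2 CPM at stage 12.5, against 2.58 and 3.70 CPM at stage 11.5 for its S copy (log2 fold change 2.4, SE 0.44, adjusted p = 0.0278). The L copy foxn4.L had 41.9 and 25.1 CPM at stage 12.5, against 10.6 and 15.5 CPM at stage 11.5 (log2 fold change 1.35, SE 0.28, adjusted p = 0.0379). Myb, which acts in centriole amplification, also rose in both copies. The S copy myb.S had 74.5 and 43.1 CPM at stage 12.5, against 17.5 and 16.4 CPM at stage 11.5 (log2 fold change 1.74, SE 0.24, adjusted p = 0.0168), and the L copy, listed as myb.L_LOC108716152, had 46.1 and 21.0 CPM at stage 12.5, against 10.3 and 12.6 CPM at stage 11.5 (log2 fold change 1.41, SE 0.32, adjusted p = 0.047). Cyclin O, needed to build many centrioles, was represented by ccno.S with 109 and 44.4 CPM at stage 12.5, against 16.2 and 24.9 CPM at stage 11.5 (log2 fold change 1.90, SE 0.41, adjusted p = 0.0408). The copy ccno.L had 222 and 105 CPM at stage 12.5, against 40.0 and 61.8 CPM at stage 11.5, with an adjusted p of 0.0502. For all of these genes the stages did not overlap. The centriole amplification gene cdc20b.L had 3.23 and 2.29 CPM at stage 12.5, against 0.429 and 0.447 CPM at stage 11.5 (log2 fold change 2.64, SE 0.52, adjusted p = 0.0313). The mitotic kinase gene cdk1.L was also counted here, with 115 and 74.6 CPM at stage 12.5, against 67.6 and 49.1 CPM at stage 11.5 (log2 fold change 0.69, SE 0.14, adjusted p = 0.0384). The member that fell, fbxo43.S, encodes an inhibitor of the anaphase promoting complex known from eggs, and had 0.719 and 1.16 CPM at stage 12.5, against 2.90 and 2.89 CPM at stage 11.5 (log2 fold change -1.68, SE 0.35, adjusted p = 0.036).

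**Figure D3:**
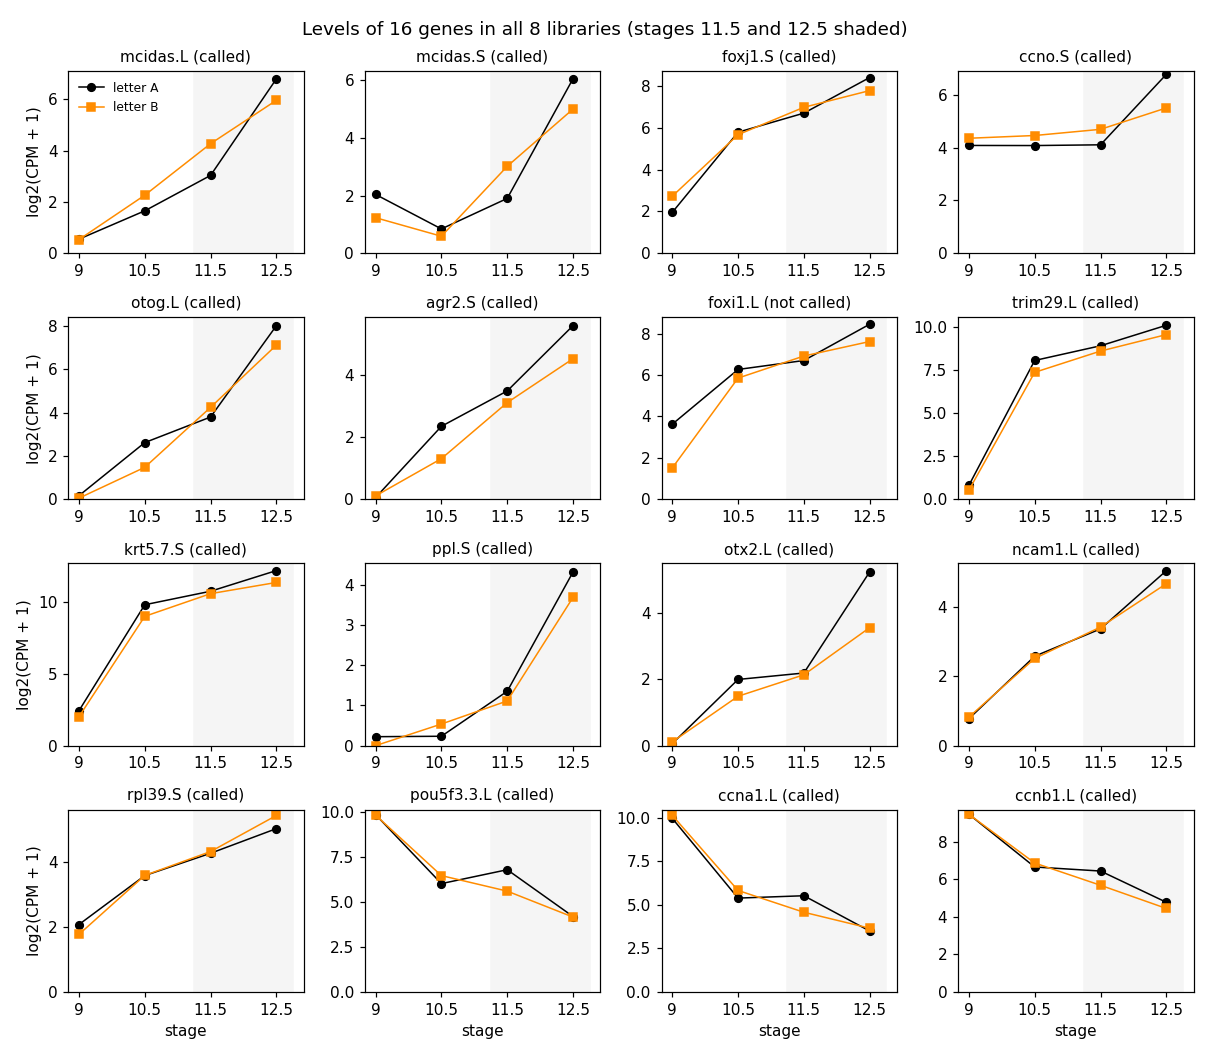
Log2(CPM + 1) of 16 genes from stage 9 to stage 12.5, with the 4 stages evenly spaced on the x axis, in experiments A (black circles) and B (orange squares), with the compared stages shaded. The mcidas copies, otog.L and ppl.S climb between the shaded stages, while pou5f3.3.L, ccna1.L and ccnb1.L fall, and foxi1.L is shown although it was not called.

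Structural genes of cilia were called in 1 direction by edgeR. Of 65 tested members of the axoneme and ciliary transport list, 6 were called higher and 0 lower (9.23%, against 4.58% over all tested genes). DESeq2 with the same block called 17 higher and 1 lower, against 1738 and 1605 of 43361 genes. The list's median log2 fold change was 0.40, or 0.25 without stage 12.5 A. The tektin gene tekt1.L, for a filament protein of the axoneme, had 7.09 and 7.03 CPM at stage 12.5, against 2.92 and 1.85 CPM at stage 11.5 (log2 fold change 1.57, SE 0.33, adjusted p = 0.0385), and the centrin gene cetn4.L, for a basal body protein, had 40.0 and 27.96 CPM at stage 12.5, against 12.8 and 12.05 CPM at stage 11.5 (log2 fold change 1.43, SE 0.18, adjusted p = 0.0151). The other called members were cfap43.L at 0.89, bbs7.L at 0.89, ift43.L at 0.80 and ift20.L at 0.80 on the log2 scale, for an axonemal protein, a BBSome subunit and subunits of intraflagellar transport. With library size alone 2 members were called higher and 1 lower. The axonemal dynein heavy chain dnah9.S had 56.8 and 34.0 CPM at stage 12.5, against 39.2 and 35.7 CPM at stage 11.5 (adjusted p = 0.69). Another tektin, tekt2.S, had 8.99 and 5.996 CPM at stage 12.5, against 1.88 and 0.865 CPM at stage 11.5, just short of the threshold (adjusted p = 0.057). The intraflagellar transport gene ift88.S went the other way and was not called. It had 17.4 and 17.4 CPM at stage 12.5, against 30.2 and 18.7 CPM at stage 11.5 (log2 fold change -0.45, adjusted p = 0.22).

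Ionocytes pump ions across the epidermis and are specified by Foxi1. Their genes showed no common direction: 1 of 45 tested members was called higher and 2 lower, near the shares over all tested genes. The median was 0.11, and -0.05 with library size alone. With only the 4 libraries of both stages and the block, edgeR called 4 higher and 2 lower of 43. In that fit 935 of all 26317 genes were called higher and 564 lower. The gene foxi1.L had 348 and 195 CPM at stage 12.5, against 103 and 119.6 CPM at stage 11.5, and foxi1.S had 98.6 and 69.5 CPM at stage 12.5, against 35.6 and 56.7 CPM at stage 11.5. For both copies the stages did not overlap, yet neither passed the test (log2 fold change 1.15, SE 0.48, adjusted p = 0.207 for the L copy and log2 fold change 0.83, SE 0.36, adjusted p = 0.223 for the S copy). In the authors' deposited table foxi1.L had a log2 fold change of 1.09 and an adjusted p of 0.00253. The edgeR fit takes the spread of a gene over all 8 libraries. At stage 9, foxi1.L had 11.3 and 1.85 CPM and foxi1.S had 1.25 and 0.362 CPM. No fit left out stage 9 alone as a whole, so its part in the edgeR result was not tested. The cofactor gene ubp1.L had 37.5 and 14.8 CPM at stage 12.5, against 8.50 and 12.7 CPM at stage 11.5 (adjusted p = 0.144). The factor dmrt2.L had 4.28 and 2.09 CPM at stage 12.5, against 0.912 and 0.925 CPM at stage 11.5 (adjusted p = 0.311). The stage 9 values of dmrt2.L were 0.982 and 17.5 CPM, and their part in this result was not tested. Of the called members, esrrg.S, for an orphan nuclear receptor, had 18.7 and 10.8 CPM at stage 12.5, against 7.70 and 4.74 CPM at stage 11.5 (log2 fold change 1.24, SE 0.23, adjusted p = 0.0271). The proton pump subunit atp6v0a1.S fell to 17.5 and 23.0 CPM at stage 12.5, against 34.6 and 35.0 CPM at stage 11.5 (log2 fold change -0.79, SE 0.15, adjusted p = 0.0282). A pair of other transport proteins of mature ionocytes did not pass the test. The proton pump subunit atp6v1b1.L had 1.08 and 0.756 CPM at stage 12.5, against 1.02 and 0.776 CPM at stage 11.5, and the anion exchanger slc4a1.L had 12.51 and 11.9 CPM at stage 12.5, against 9.82 and 6.06 CPM at stage 11.5 (adjusted p = 0.151).

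Of 25 tested genes of goblet and small secretory cells, 5 were called higher at stage 12.5 and 0 lower. The list's median was 0.41, or 0.25 without stage 12.5 A. Besides otog.L, itln1.L, for intelectin, a carbohydrate-binding lectin of the mucus, had 5.42 and 4.53 CPM at stage 12.5, against 0.537 and 0.358 CPM at stage 11.5 (log2 fold change 3.51, SE 0.55, adjusted p = 0.0232). The disulfide isomerase agr2.S, which helps to fold mucins, had 47.3 and 22.1 CPM at stage 12.5, against 10.2 and 7.67 CPM at stage 11.5 (log2 fold change 1.86, SE 0.29, adjusted p = 0.0204). The remaining 2 were galnt6, an enzyme that starts O-linked sugar chains, with 112 and 96.3 CPM at stage 12.5, against 60.3 and 54.5 CPM at stage 11.5 (log2 fold change 0.86, SE 0.12, adjusted p = 0.0181), and xbp1.L, a factor that expands the secretory pathway, with 702 and 738 CPM at stage 12.5, against 419 and 475 CPM at stage 11.5 (log2 fold change 0.69, SE 0.14, adjusted p = 0.036). The named markers of small secretory cells were not called. The regulator foxa1.S had at most 1.49 CPM in the 4 libraries and foxa1.L at most 0.850 CPM, and tph1.S, which makes serotonin, had 1.99 and 1.66 CPM at stage 12.5, against 4.99 and 3.61 CPM at stage 11.5 (adjusted p = 0.105). The secretory cell factor spdef.S had 19.6 and 11.6 CPM at stage 12.5, against 5.902 and 6.35 CPM at stage 11.5 (adjusted p = 0.339). Its stage 9 values, which also entered the fit, were 0.293 and 4.39 CPM, and their part in this result was not tested. In the authors' deposited table spdef.S had a log2 fold change of 1.08 and an adjusted p of 0.0131.

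The general machinery of secretion was called in few members. Of 87 tested members, 5 were called higher and 0 lower (5.75%, near the 4.58% over all tested genes), with a median of 0.21. The chaperone hspa5.S had 403 and 284 CPM at stage 12.5, against 216 and 182 CPM at stage 11.5 (log2 fold change 0.77, SE 0.11, adjusted p = 0.0182), and the disulfide isomerase p4hb.L had 1045 and 932 CPM at stage 12.5, against 685 and 628 CPM at stage 11.5 (log2 fold change 0.59, SE 0.13, adjusted p = 0.0451). The translocon subunits sec61g.L and sec61b.L changed by 0.64 and 0.61 on the log2 scale, and xbp1.L is counted here again. With library size alone, 2 members were called higher and 1 lower, and the median was 0.05.

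Among 46 tested regulators of the epidermal fate, 10 were called higher and 1 lower, with a median of 0.40. The homeobox genes msx1.S and dlx3.L, both downstream of BMP signals in the ectoderm, rose. The first had 72.8 and 64.5 CPM at stage 12.5, against 19.1 and 34.8 CPM at stage 11.5 (log2 fold change 1.43, SE 0.25, adjusted p = 0.0252). The second had 164 and 106 CPM at stage 12.5, against 48.9 and 67.6 CPM at stage 11.5 (log2 fold change 1.18, SE 0.23, adjusted p = 0.0319). The trim29 copies, which mark the epidermis, had 1081 and 743 CPM at stage 12.5, against 474 and 383 CPM at stage 11.5 for L (log2 fold change 1.07, SE 0.12, adjusted p = 0.0146) and 257 and 154 CPM at stage 12.5, against 105 and 74.3 CPM at stage 11.5 for S (log2 fold change 1.17, SE 0.14, adjusted p = 0.0151). In all 4 genes both stage 12.5 libraries were above both stage 11.5 libraries. The copy dlx3.S was not called (log2 fold change 0.89, adjusted p = 0.134). Esrp1, a splicing factor of epithelia, rose in both copies. The S copy esrp1.S had 139 and 114 CPM at stage 12.5, against 59.8 and 65.8 CPM at stage 11.5 (log2 fold change 1.01, SE 0.15, adjusted p = 0.0194), and the L copy esrp1.L had 238 and 196 CPM at stage 12.5, against 105 and 128 CPM at stage 11.5 (log2 fold change 0.90, SE 0.14, adjusted p = 0.021).

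Among grainyhead factors, which drive epithelial barrier genes, grhl3.L had 1046 and 962 CPM at stage 12.5, against 706 and 627 CPM at stage 11.5 (log2 fold change 0.59, SE 0.10, adjusted p = 0.0256). Its partner copy grhl3.S had 814 and 716 CPM at stage 12.5, against 546 and 481 CPM at stage 11.5, and was not called (adjusted p = 0.137). The relative grhl1.L and the zinc finger gene znf750.L, a factor of terminal epidermal differentiation in mammals, were called with log2 fold changes of 0.67 and 0.73. The Krüppel-like factor gene klf4.S had 3.69 and 0.957 CPM at stage 12.5, against 0.0805 and 0.119 CPM at stage 11.5 (log2 fold change 4.32, SE 0.74, adjusted p = 0.0243), so that its rise starts from values close to the 3-count floor of 0.0805 CPM in A and 0.0895 CPM in B. The member that fell was ets1.L, with 3.99 and 3.90 CPM at stage 12.5, against 12.39 and 7.52 CPM at stage 11.5 (log2 fold change -1.30, SE 0.19, adjusted p = 0.0183), a factor better known from neural crest and blood vessels. The gene of the basal cell factor tp63, listed as tp63.S_LOC399036, had 3.33 and 2.65 CPM at stage 12.5, against 1.48 and 1.31 CPM at stage 11.5 (adjusted p = 0.341). The ectodermal factor tfap2a.L had 409 and 282 CPM at stage 12.5, against 297 and 325 CPM at stage 11.5 (adjusted p = 0.757).

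Among keratins and junction components, 14 of 87 tested members were called higher and 4 lower, and the 4 lower ones belong to tight junctions. The list's median was 0.13, which was -0.03 with library size alone. The keratin gene krt5.7.S had 4589.6 and 2590.5 CPM at stage 12.5, against 1696 and 1509 CPM at stage 11.5 (log2 fold change 1.1, SE 0.16, adjusted p = 0.0182), and krt5.7.L had 3109 and 1819 CPM at stage 12.5, against 1103 and 1120.2 CPM at stage 11.5 (log2 fold change 1.09, SE 0.18, adjusted p = 0.021). The simple epithelial keratin gene krt8.S had 1081 and 573 CPM at stage 12.5, against 494 and 356 CPM at stage 11.5 (log2 fold change 0.91, SE 0.13, adjusted p = 0.018), and krt8.L had 2614 and 1415 CPM at stage 12.5, against 1211 and 1055 CPM at stage 11.5 (log2 fold change 0.78, SE 0.16, adjusted p = 0.0343). In these 4 keratin genes A was above B at stage 12.5 and every stage 12.5 value was above every stage 11.5 value. Desmoplakin anchors keratin to desmosomes. Its copy dsp.L had 518 and 466 CPM at stage 12.5, against 301 and 296 CPM at stage 11.5 (log2 fold change 0.72, SE 0.13, adjusted p = 0.0278). The copy dsp.S was not called (log2 fold change 0.35, adjusted p = 0.109). E-cadherin, of adherens junctions, had 560.0 and 426 CPM at stage 12.5, against 310.2 and 287 CPM at stage 11.5 for cdh1.S (log2 fold change 0.71, SE 0.11, adjusted p = 0.0207), whereas the copy cdh1.L had 3.79 and 3.02 CPM at stage 12.5, against 6.92 and 4.80 CPM at stage 11.5, and was not called (adjusted p = 0.165). The remaining calls upward were both ppl copies, both esrp1 copies, itga6.L, dsg2.L, upk1b.L and upk3b.L. The 4 that fell were cldn5.L, cldn6.1.L and cldn6.1.S, for claudins, and cgnl1.S, for a cingulin relative. Of these, cldn5.L had 0.196 and 0.403 CPM at stage 12.5, against 1.13 and 1.37 CPM at stage 11.5 (log2 fold change -2.08, SE 0.42, adjusted p = 0.0343), and the other 3 changed by between -0.82 and -0.47 on the log2 scale.

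No Notch ligand, receptor or modulator passed edgeR's test in the fit over all 8 libraries. Of 49 tested members edgeR called 0, and 13 had an unadjusted p under 0.05, against 22.4% of all tested genes. DESeq2 with the same block called 4 higher and 3 lower, against 1738 and 1605 of 43361 genes. With only the 4 libraries of both stages and the block, edgeR called 3 higher and 1 lower of 48. In that fit 935 of all 26317 genes were called higher and 564 lower. The median was -0.11. The ligand gene dll1.S, listed as dll1.S_LOC108717842, had 142 and 79.1 CPM at stage 12.5, against 44.8 and 58.7 CPM at stage 11.5 (adjusted p = 0.0537). The ligand gene dlc.L had 70.6 and 64.6 CPM at stage 12.5, against 22.9 and 41.9 CPM at stage 11.5 (adjusted p = 0.0747). For both ligands the stages did not overlap. The receptor gene notch1.S had 173 and 138 CPM at stage 12.5, against 132 and 198 CPM at stage 11.5, with overlapping stages (adjusted p = 0.862). Genes that respond to Notch were called in part. Of 32 tested Hes, Hey and Nrarp genes, 3 were called higher and 0 lower, with a median of 0.59. With only the 4 libraries of both stages and the block, 10 of 31 were called higher and 0 lower. These counts can be read against the 935 higher and 564 lower of 26317 genes in that fit. The Hes repressor genes called were hes5.4.S (listed as hes5.4.S_hes8.S), hes5.8.L (hes5.8.L_hes5_X2.L) and hes5.6.S (hes5.6.S_hes9-1.S). The first had 2.61 and 1.81 CPM at stage 12.5, against 0.134 and 0.268 CPM at stage 11.5 (log2 fold change 3.45, SE 0.75, adjusted p = 0.0417), which is low. The second had 5.39 and 17.4 CPM at stage 12.5, against 1.77 and 5.01 CPM at stage 11.5 (log2 fold change 1.71, SE 0.22, adjusted p = 0.0151), with B above A at both stages. The third had 8.92 and 7.86 CPM at stage 12.5, against 3.76 and 3.22 CPM at stage 11.5 (log2 fold change 1.26, SE 0.24, adjusted p = 0.0292). The feedback inhibitor nrarp.S had 209 and 183 CPM at stage 12.5, against 236 and 227 CPM at stage 11.5 (adjusted p = 0.246), and hes1.L had 62.2 and 50.8 CPM at stage 12.5, against 35.3 and 40.2 CPM at stage 11.5 (adjusted p = 0.309).

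Of 65 tested BMP pathway members, 2 were called higher and 3 lower, near the shares over all tested genes (2.21% and 2.37%). The higher ones were bmp4.S and msx1.S, and the lower ones were grem1.L and both dand5 copies. The copy bmp4.L was not called (log2 fold change 0.52, adjusted p = 0.38). The median was 0.22, or 0.06 with library size alone and -0.03 without stage 12.5 A. The ligand gene bmp4.S had 161 and 116 CPM at stage 12.5, against 82.2 and 75.4 CPM at stage 11.5 (log2 fold change 0.80, SE 0.16, adjusted p = 0.0312), and the target msx1.S is given above. Gremlin 1, a secreted BMP antagonist, fell to 0.850 and 3.02 CPM at stage 12.5, against 5.23 and 9.79 CPM at stage 11.5 for grem1.L (log2 fold change -2.08, SE 0.32, adjusted p = 0.02). Coco, encoded by dand5, is a maternal antagonist of Nodal, BMP and Wnt signals in the frog. The copy dand5.S had 4.77 and 3.27 CPM at stage 12.5, against 10.9 and 14.6 CPM at stage 11.5 (log2 fold change -1.65, SE 0.29, adjusted p = 0.0253), and dand5.L had 5.097 and 6.75 CPM at stage 12.5, against 12.6 and 21.9 CPM at stage 11.5 (log2 fold change -1.51, SE 0.28, adjusted p = 0.0277). Both fell without overlap of the stages. The immediate targets id3.S with 963 and 805 CPM at stage 12.5, against 706 and 580.4 CPM at stage 11.5, and smad6.L with 24.2 and 17.6 CPM at stage 12.5, against 22.8 and 35.3 CPM at stage 11.5 were not called (adjusted p = 0.37 and 0.3).

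Called Wnt pathway genes were 3 of 68 tested (4.41%), near the share called over all tested genes (4.58%). The list's median was 0.11, or -0.06 with library size alone. All 3 called genes were higher, against 2.21% called higher over all tested genes. They were the receptor genes fzd6.L and fzd10.S and the nuclear factor gene lef1.L. The first receptor had 87.2 and 41.7 CPM at stage 12.5, against 23.1 and 22.2 CPM at stage 11.5 (log2 fold change 1.43, SE 0.26, adjusted p = 0.0264). The second had 37.4 and 54.4 CPM at stage 12.5, against 11.4 and 27.98 CPM at stage 11.5 (log2 fold change 1.3, SE 0.25, adjusted p = 0.0294). The factor lef1.L had 34.1 and 32.7 CPM at stage 12.5, against 17.4 and 18.9 CPM at stage 11.5 (log2 fold change 0.89, SE 0.18, adjusted p = 0.0325). Of the 47 tested FGF and ERK feedback genes edgeR called 0. An unadjusted p under 0.05 was found for 10 of them, against 22.4% of all tested genes. DESeq2 called 3 higher and 1 lower, against 1738 and 1605 of 43361 genes. Their median was -0.01, or 0.01 with the size factors of DESeq2. The feedback phosphatase gene dusp6.S had 47.6 and 48.9 CPM at stage 12.5, against 47.97 and 42.5 CPM at stage 11.5, with overlapping stages.

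Blastula competence factors keep cells of the animal cap open to several fates. Of 49 tested members edgeR called 0 higher and 5 lower, with a median of -0.03. DESeq2 with the same block called 3 higher and 7 lower, against 1738 and 1605 of 43361 genes. Besides both pou5f3.3 copies and foxh1.2.L, foxi2.S fell, a maternal factor that activates foxi1 in the frog ectoderm. It had 2.22 and 1.96 CPM at stage 12.5, against 8.75 and 4.98 CPM at stage 11.5 (log2 fold change -1.68, SE 0.19, adjusted p = 0.0151). Of the other Pou5f3 genes, pou5f3.2.S had 255 and 214 CPM at stage 12.5, against 399 and 487 CPM at stage 11.5 (log2 fold change -0.92, SE 0.14, adjusted p = 0.02). The gene pou5f3.1.L was not called, with 1564 and 1134 CPM at stage 12.5, against 864 and 1079.7 CPM at stage 11.5 (adjusted p = 0.161). Nor were pou5f3.1.S, pou5f3.2.L, foxh1.L, foxh1.S and foxi2.L called. Their log2 fold changes were, in that order, 0.27, -0.46, -0.38, -2.31 and -1.92. Over the series, pou5f3.3.L had 919 and 900.2 CPM at stage 9, 63.6 and 87.0 CPM at stage 10.5, 109 and 47.4 CPM at stage 11.5 and 17.2 and 16.8 CPM at stage 12.5.

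Maternal and oocyte transcripts that edgeR called all fell. Of 78 tested members, 0 were called higher and 8 lower, with a median of -0.16. Among these 8, both ccna1 and both wee2 copies are also on the cell cycle list below. The gene fbxo43.S is also on the multiciliated cell list above. DESeq2 with the same block called 3 members of the maternal list higher and 19 lower, against 1738 and 1605 of 43361 genes. For 34 members both stage 12.5 libraries were below both stage 11.5 libraries, against 21.4% of all tested genes. The oocyte translational repressor gene patl2.L had 2.48 and 2.87 CPM at stage 12.5, against 15.6 and 6.32 CPM at stage 11.5 (log2 fold change -2.0, SE 0.39, adjusted p = 0.0309). The meiotic kinase gene mos.L, which holds eggs in arrest, had 9.77 and 6.50 CPM at stage 12.5, against 17.8 and 16.3 CPM at stage 11.5 (log2 fold change -1.09, SE 0.16, adjusted p = 0.0183). The oocyte linker histone gene h1foo.L had 20.6 and 19.1 CPM at stage 12.5, against 41.9 and 30.3 CPM at stage 11.5 (log2 fold change -0.85, SE 0.13, adjusted p = 0.0202), while h1foo.S had 308 and 325 CPM at stage 12.5, against 351 and 306 CPM at stage 11.5, and was not called (adjusted p = 0.83). The stage 11.5 libraries were far apart for cpeb1, a translational regulator of oocytes. The copy cpeb1.L had 3.76 and 3.75 CPM at stage 12.5, against 67.6 and 3.94 CPM at stage 11.5, and cpeb1.S had 5.03 and 4.66 CPM at stage 12.5, against 75.4 and 4.45 CPM at stage 11.5. Only stage 11.5 A was high, and neither copy was called (adjusted p = 0.138 and 0.166). The pou5f3.3 copies, given above, also had their highest value of the 4 in stage 11.5 A. Without that library 0 members of the maternal list were called, and its median was -0.11, while all 8 members called with it still had fold changes below 0.

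Cell cycle genes that edgeR called were mainly lower. Of 93 tested members it called 2 higher and 11 lower, with a median of -0.05. DESeq2 with the same block called 10 higher and 13 lower, against 1738 and 1605 of 43361 genes. Cyclin A1, the cyclin A of the cleavage divisions, had 10.2 and 11.6 CPM at stage 12.5, against 44.7 and 22.7 CPM at stage 11.5 for ccna1.L (log2 fold change -1.62, SE 0.30, adjusted p = 0.028). The S copy ccna1.S had 5.42 and 15.5 CPM at stage 12.5, against 27.0 and 32.0 CPM at stage 11.5 (log2 fold change -1.72, SE 0.39, adjusted p = 0.047). Cyclin B1, which drives entry into mitosis, had 26.4 and 20.8 CPM at stage 12.5, against 85.7 and 50.3 CPM at stage 11.5 for ccnb1.L (log2 fold change -1.51, SE 0.21, adjusted p = 0.0182), and ccnb1.S had 23.9 and 34.7 CPM at stage 12.5, against 90.5 and 71.2 CPM at stage 11.5 (log2 fold change -1.49, SE 0.22, adjusted p = 0.0197). In all 4 cyclin genes both stage 12.5 libraries were below both stage 11.5 libraries. The oocyte and embryo kinase gene wee2.S, which restrains Cdk1, had 45.8 and 38.2 CPM at stage 12.5, against 93.8 and 87.0 CPM at stage 11.5 (log2 fold change -1.11, SE 0.14, adjusted p = 0.0151), and wee2.L changed by -1.15 on the log2 scale. The replication licensing genes cdc6.S, cdc6.L and cdt1.L, the centromeric histone cenpa.L and the mitotic activator cdc20.L fell too, with log2 fold changes between -0.75 and -0.54. The members that edgeR called higher were cdk1.L and ccno.S, given above. Cyclin A2, the later cyclin A, was not called, with 717 and 513 CPM at stage 12.5, against 771 and 549 CPM at stage 11.5 for ccna2.L (adjusted p = 0.685) and 209.8 and 163 CPM at stage 12.5, against 308 and 225 CPM at stage 11.5 for ccna2.S (adjusted p = 0.0581).

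Many cytoplasmic ribosomal protein genes rose. Of 117 tested, 45 were called higher and 0 lower, with a median of 0.60, and 117 had a positive fold change. For 112 both stage 12.5 libraries lay above both stage 11.5 libraries, against 22.3% of all tested genes. The list's summed level was 10724 and 9167 CPM at stage 12.5, against 6550 and 6790 CPM at stage 11.5, and its median change was 0.76 in A and 0.43 in B. With library size alone, 12 members were called higher and 0 lower and the median was 0.43, against -0.16 over all genes. Among the largest changes, rpl39.S of the large subunit had 31.8 and 42.4 CPM at stage 12.5, against 18.4 and 19.1 CPM at stage 11.5 (log2 fold change 0.99, SE 0.20, adjusted p = 0.0365). The small subunit gene rps7 had 97.4 and 88.0 CPM at stage 12.5, against 46.7 and 49.6 CPM at stage 11.5 (log2 fold change 0.94, SE 0.15, adjusted p = 0.021). The next were rpl29.S at 0.96, rpl27a.S at 0.94, rpl36.S at 0.89, rpl19.L at 0.89, rpl29.L at 0.88 and rps3a.L at 0.86 on the log2 scale. Counts of ribosomal protein genes can be shared with near-identical copies, and how the authors assigned such reads is not given in the sources used here.

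Few members of the other housekeeping lists were called: 1.61% for oxidative phosphorylation and 1.67% for the proteasome, against 4.58% over all tested genes. Of 124 tested oxidative phosphorylation genes, 2 were called higher and 0 lower, with a median of 0.17, and with library size alone 0 were higher and 2 lower, with a median of 0.01. The complex I subunit gene ndufa8.L had 55.5 and 51.8 CPM at stage 12.5, against 29.7 and 26.9 CPM at stage 11.5 (log2 fold change 0.92, SE 0.17, adjusted p = 0.0274). The cytochrome c oxidase subunit gene cox7c.L had 44.2 and 47.6 CPM at stage 12.5, against 27.7 and 29.4 CPM at stage 11.5 (log2 fold change 0.68, SE 0.14, adjusted p = 0.0319). Of 60 proteasome subunits 1 was called, psmd14.L, the deubiquitinase of the lid, with 15.1 and 17.3 CPM at stage 12.5, against 7.59 and 5.16 CPM at stage 11.5 (log2 fold change 1.38, SE 0.26, adjusted p = 0.0292). The median over the proteasome was 0.15, or -0.01 with library size alone.

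Markers of tissues other than mucociliary epidermis were examined in the same libraries. Of 13 tested cement gland and hatching gland genes 5 were called higher and 0 lower. Their median was 1.25, but 0.38 without stage 12.5 A. The anterior homeobox gene otx2.L, whose copies are also on the neural list, had 36.9 and 10.8 CPM at stage 12.5, against 3.57 and 3.40 CPM at stage 11.5 (log2 fold change 2.57, SE 0.42, adjusted p = 0.0215), and otx2.S had 13.0 and 3.12 CPM at stage 12.5, against 1.07 and 1.13 CPM at stage 11.5 (log2 fold change 2.53, SE 0.51, adjusted p = 0.0343). The anterior gradient gene ag1.L, a secreted product of the cement gland, had 104 and 38.6 CPM at stage 12.5, against 26.7 and 12.47 CPM at stage 11.5 (log2 fold change 1.79, SE 0.23, adjusted p = 0.0151), and ag1.S had 39.9 and 18.3 CPM at stage 12.5, against 7.78 and 7.25 CPM at stage 11.5 (log2 fold change 1.91, SE 0.36, adjusted p = 0.0289). The list's summed level was 486 and 144 CPM at stage 12.5, against 127 and 72.0 CPM at stage 11.5, so that stage 12.5 A lay far above the other 3 libraries. The fifth member, agr2.S, is also on the goblet cell list.

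Neural genes were called in 4 of 56 tested members (7.14%, against 4.58% over all tested genes), all higher, with a median of -0.06. They were both otx2 copies and both copies of the neural cell adhesion gene ncam1. The L copy ncam1.L had 31.9 and 24.3 CPM at stage 12.5, against 9.28 and 9.67 CPM at stage 11.5 (log2 fold change 1.56, SE 0.20, adjusted p = 0.0151), and ncam1.S had 10.4 and 6.98 CPM at stage 12.5, against 3.70 and 3.52 CPM at stage 11.5 (log2 fold change 1.24, SE 0.29, adjusted p = 0.0499). The neural plate factor sox2.L had 9.67 and 11.7 CPM at stage 12.5, against 7.54 and 9.84 CPM at stage 11.5, and sox3.S had 305 and 362 CPM at stage 12.5, against 325 and 425 CPM at stage 11.5, with overlapping stages in both (adjusted p = 0.484 and 0.401). The proneural gene neurog2.L had 1.31 and 3.43 CPM at stage 12.5, against 2.44 and 3.103 CPM at stage 11.5 (adjusted p = 0.73). The list's summed level was 1172 and 1067 CPM at stage 12.5, against 1028 and 1191 CPM at stage 11.5. Of 32 tested neural crest and placode genes 2 were higher, eya1.L and msx1.S, and 2 lower, foxd3.L and ets1.L. The placode gene eya1.L had 9.77 and 6.15 CPM at stage 12.5, against 1.58 and 1.73 CPM at stage 11.5 (log2 fold change 2.19, SE 0.49, adjusted p = 0.0458). The crest factor foxd3.L was low throughout, with 0.261 and 0.151 CPM at stage 12.5, against 0.858 and 0.955 CPM at stage 11.5 (log2 fold change -2.17, SE 0.48, adjusted p = 0.0443), and foxd3.S had 0 counts in both stage 12.5 libraries.

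Mesoderm and endoderm markers were low and differed between A and B. Of 62 tested members edgeR called 0, and 10 had an unadjusted p under 0.05, against 22.4% of all tested genes. DESeq2 called 1 higher and 2 lower, against 1738 and 1605 of 43361 genes. With only the 4 libraries of both stages and the block, edgeR called 1 higher and 1 lower of 55. In that fit 935 of all 26317 genes were called higher and 564 lower. The median was -0.37, and their summed level was 225 and 835 CPM at stage 12.5, against 359 and 536 CPM at stage 11.5. Without stage 11.5 A the median was 0.00. Brachyury, a mesodermal T-box factor, had 1.24 and 9.65 CPM at stage 12.5, against 2.41 and 3.82 CPM at stage 11.5 for t.S. The ligand gene wnt8a.L had 1.37 and 11.6 CPM at stage 12.5, against 3.38 and 2.27 CPM at stage 11.5. In both genes stage 12.5 B was the highest of the 4 libraries and stage 12.5 A the lowest. The endodermal gene sox17a.L had 1.70 and 1.84 CPM at stage 12.5, against 1.53 and 4.15 CPM at stage 11.5, and mix1.L had at most 0.126 CPM. The median change was 0.64 in A and 0.24 in B over the epidermal regulators, and 0.51 in A and 0.43 in B over the multiciliated cell regulators, and the part of the mesodermal and endodermal RNA in these values was not tested.

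Whether this step differed from earlier steps was tested directly. Compared with the step to stage 11.5 from stage 10.5, 0 genes had a step difference past the threshold in edgeR's test (0% of those tested). DESeq2 called 1. At an unadjusted p under 0.05 edgeR had 800 (2.81%), fewer than this threshold gives where nothing differs. The step to stage 11.5 itself had 21 called genes. The count of 0 therefore does not show that the steps were alike. Compared with the step to stage 10.5 from stage 9, 10445 genes differed (36.7%), 5023 with a positive and 5422 with a negative difference. Of the 630 genes higher at stage 12.5, 133 had a positive, 327 a negative and 170 no called difference from that first step. Of the 676 lower genes, 253 had a positive, 47 a negative and 376 no called difference. These genes were chosen by the later step, so their split is a description.

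Among genes called between stages 12.5 and 11.5, with a symbol and at least 5 CPM at any stage, those with the largest step differences followed contrasting courses. The gene mcidas.S had 3.11 and 1.35 CPM at stage 9, 0.792 and 0.502 CPM at stage 10.5, 2.74 and 7.1 CPM at stage 11.5 and 65.9 and 31.2 CPM at stage 12.5, with a step difference of 4.92 (SE 0.84, adjusted p = 0.00251). It was thus lower at stage 10.5 than at stage 9 before it rose. The scaffold gene tanc1-like.S had 56.7 and 61.4 CPM at stage 9, 4.90 and 3.72 CPM at stage 10.5, 8.48 and 5.37 CPM at stage 11.5 and 17.7 and 11.4 CPM at stage 12.5, with a step difference of 4.88 (SE 0.32). Its copy tanc1-like.L and chsy1.S, for a chondroitin synthase, had step differences of 4.13 and 3.98. At the other end trim29.L had 0.752 and 0.443 CPM at stage 9, 262 and 163 CPM at stage 10.5, 474 and 383 CPM at stage 11.5 and 1081 and 743 CPM at stage 12.5, with a step difference of -7.39 (SE 0.21, adjusted p = 2.97e-06). Its rise at the later step followed a far larger one at the first. The genes dlx3.L and cdkl2.L, for a homeobox factor and a kinase, were at or under 3 counts in both stage 9 libraries, so their negative step differences have no fixed size. The hypoxia-inducible factor gene epas1.S had 0.125 and 0.0403 CPM at stage 9, 23.3 and 18.7 CPM at stage 10.5, 31.6 and 36.6 CPM at stage 11.5 and 69.9 and 61.1 CPM at stage 12.5, with a step difference of -7.01.

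Homeologs, the pairs of L and S copies left by the genome duplication of this frog, were compared with each other. Among 4784 pairs with both copies tested, 94 had both copies called, of which 48 were higher in both, 44 lower in both and 2 opposite. In a further 459 pairs 1 copy was called, and in 378 of these the other copy had the same sign. The share with the same sign over all 4784 pairs was not counted, so these numbers are a description. The part of reads shared between closely similar copies was not tested. The ratio of L to S was tested with limma on log2((L + 1)/(S + 1)) in CPM, with the letter as a block. It was called in 194 pairs (4.06%), 109 with a shift toward L and 85 toward S, with 1074 at an unadjusted p under 0.05. These calls depend on every library of the stages compared: leaving out any 1 of them left almost no pair called. Leaving out a library of the earliest stage of the series raised the count, and leaving out a library of the next stage lowered it. The ratio shifts named below share this limit.

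The opposite pairs were aim1 and ccdc50, the second named after its values were seen. For aim1, a crystallin relative, the L copy had 37.7 and 38.2 CPM at stage 12.5, against 69.4 and 57.3 CPM at stage 11.5, and the S copy had 64.9 and 57.9 CPM at stage 12.5, against 18.7 and 15.99 CPM at stage 11.5. Its L to S ratio changed by -2.49 on the log2 scale (SE 0.30, limma adjusted p = 0.0133). The S copy was thus lower than the L copy in both stage 11.5 libraries and higher in both stage 12.5 libraries, comparing homeologs by CPM without their lengths. For ccdc50 the L copy had 3283 and 2721 CPM at stage 12.5, against 1789 and 1877 CPM at stage 11.5, and the S copy had 11.53 and 21.4 CPM at stage 12.5, against 24.1 and 34.3 CPM at stage 11.5, with a ratio change of 1.53 on the log2 scale (SE 0.14, limma adjusted p = 0.0116).

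Larger shifts toward L were led by liph. Its L copy is given above, and its S copy had 12.48 and 15.2 CPM at stage 12.5, against 22.5 and 17.8 CPM at stage 11.5, with a ratio change of 2.88 on the log2 scale (SE 0.43, limma adjusted p = 0.0181). For eps8l1, for an actin-regulating protein, the L copy had 29.9 and 27.6 CPM at stage 12.5, against 6.44 and 6.98 CPM at stage 11.5, and the S copy 0.850 and 0.756 CPM at stage 12.5, against 1.31 and 1.55 CPM at stage 11.5, with a ratio change of 2.38 on the log2 scale (SE 0.25, limma adjusted p = 0.0116). The fatty acid hydroxylase gene fa2h and the calmodulin kinase gene camk2d shifted by 1.99 and 1.98. In all 4 pairs the L copy was called higher and the S copy was not called. Shifts toward S, after aim1, were those of rab27a, klf4 and fam83a. The S copy of rab27a, a small GTPase of secretory granules, had 34.0 and 30.8 CPM at stage 12.5, against 9.47 and 9.16 CPM at stage 11.5, and the L copy 1.67 and 4.89 CPM at stage 12.5, against 3.35 and 4.89 CPM at stage 11.5, with a ratio change of -2.05 on the log2 scale (SE 0.25, limma adjusted p = 0.0133). The pairs klf4 and fam83a, for a scaffold protein, shifted by -1.74 and -1.69. In these 3 pairs the S copy was called higher and the L copy was not called. The 1 CPM added to each copy makes shifts smaller where copies are low. For klf4 the edgeR log2 fold changes were -0.64 for L and 4.32 for S. Of the 8 pairs that the rule names, 2 had a mean of at least 5 CPM in both copies. The sizes and order of the other shifts thus depend on low copies.

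**Figure D4:**
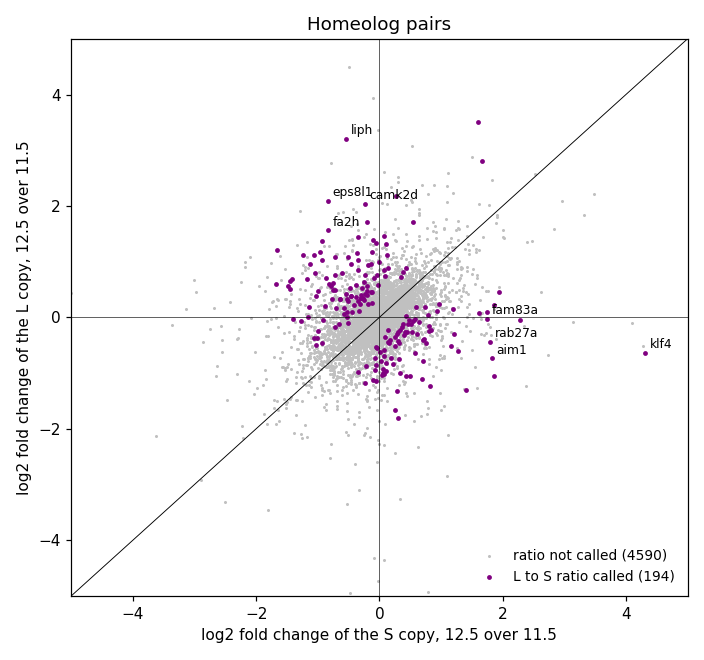
Log2 fold change of stage 12.5 over stage 11.5 for the S copy (x axis) and the L copy (y axis) of 4784 homeolog pairs, with the 194 pairs of changed L to S ratio in purple and 12 pairs beyond 5 in either copy outside the axes. The diagonal marks equal change, and the named pairs liph, eps8l1, fa2h and camk2d lie above it and aim1, rab27a, klf4 and fam83a below it.

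The authors' deposited table for the same stages gives an adjusted p for 19742 genes, of which 692 are called (3.51%), 499 higher and 193 lower. Of these, 523 were also called here, which is 75.6% of the authors' calls and 40.0% of the calls above, and all 523 have the same direction in both. For mcidas.S the authors' deposited table gives a log2 fold change of 2.4 and an adjusted p of 4.27e-10. For otog.L, the authors' deposited table gives 3.06 and 2.11e-24. The copy foxj1.L, not called above, has a log2 fold change of 1.27 and an adjusted p of 0.000327 in the authors' deposited table. In the other direction, fbxo43.S, called above, has an adjusted p of 0.0987 in the authors' deposited table.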

How the data were processed

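RNA was measured in 8 libraries of animal caps. The deposited files hold unnormalized counts for 51017 gene IDs in each library, of which 48349 have a symbol in the authors' table of symbols. The other 2668 IDs hold 1.71% of counts. Per the submitters' processing notes the tools include FastQC 0.11.5, STAR 2.6.0b-1, featureCounts 1.6.3 and DESeq2 1.22.1. The genome build and annotation are not given in the sources used here, so no coordinates or sequences are printed. Per the labels' protocols the libraries hold no strand information, so overlapping and antisense genes cannot be told apart, and closely similar copies are uncertain. The authors' deposited table for the same pair of stages holds a mean signal of scaled counts, a log2 fold change, its standard error, the Wald statistic as a score, and p-values, computed with DESeq2 per the series' design text. The samples and design behind it are not given in the sources used here.

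For the tests, edgeR 4.0.16 was run in R 4.3.3 (TMM, filterByExpr by stage, glmQLFit and glmQLFTest) on all 8 libraries, with stage and experiment letter as terms and 3 residual degrees of freedom. Standard errors were derived from the F statistic. The biological coefficient of variation was 0.198 with the block and 0.362 without it. Homeolog ratios were fitted with limma 3.58.1 in the same design, and DESeq2 1.42.0 served as an alternative. The edgeR fit with the block, for the stages compared, and the limma fit of homeolog ratios were tested on simulated data. The letters come from the sample titles, and the labels do not say what they stand for. Libraries that share a letter deviated from their stage means together: for the 6 pairs of stages Pearson's r across genes was 0.374 to 0.597, so the letters were treated as pairing the libraries. A chi-square comparison of both libraries of a stage gave at least 32.1 per degree of freedom, so that they were not repeat deposits.

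The comparison, the 22 gene lists and the rule for named genes were chosen with earlier results of these data known. Genes named are the 12 largest rises and the 12 largest falls that were called, with a symbol and at least 5 CPM at the higher stage, up to 8 called members of each list and its defining members, 2 rises and 2 falls without a symbol, 4 homeolog pairs and 4 step differences in each direction. Some genes that the rule names are not reported here. LOC symbols were matched by number to RefSeq's table for the assembly Xenopus_laevis_v10.1, which gives another symbol for 2396 of 7809 tested. Where no read is seen, counting error allows up to 3 counts, or 0.0756 to 0.0980 CPM at stage 12.5 and 0.0805 to 0.0895 CPM at stage 11.5.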

Additional observations from a re-analysis of the deposited data

How the results depend on the processing

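For stage 12.5 against stage 11.5, the 1306 called genes of the fit with the replicate block became 0 with no replicate block, and also 0 with the 4 libraries of both stages and no replicate block. With these 4 libraries and the block the count was 1499 (935 higher and 564 lower, or 62.4% higher, against 48.2%). It was 2763 with no filter on low counts, 3343 with DESeq2 and the block, and 543 with a log2 fold change of at least 1 required as well. Leaving out 1 library at a time gave between 0 and 2421 calls. With library size alone 21.8% of the calls were higher. For the difference from the step to stage 11.5, the count was 0, and 10 with no filter, 1 with DESeq2, and between 0 and 15 with 1 library left out. For the difference from the step to stage 10.5, leaving out 1 library gave between 6568 and 9865, against 10445, of which 48.1% were positive, and 7262 with no replicate block. The 194 homeolog pairs became 0 with no replicate block, 622 with the 4 libraries and the block, and between 0 and 635 with 1 library left out. Of 215 named genes, 110 were called. Among those with an adjusted p in DESeq2 with the block, 1 lost its call, cmahp.L. Called named genes to which DESeq2 gave no adjusted p are outside this count. Of all 1306 calls DESeq2 shared 1286. It made 13 calls more among the named genes, including dll1.S_LOC108717842, dlc.L, ccno.L, tekt2.S and ubp1.L. The size factors of DESeq2 in edgeR changed 2 calls. The cause of these shifts was not tested. All 1306 called genes that had a value kept their sign under every setting run. They already had the same sign in A and B when they were called, so this is a description. Each stage has 2 libraries, and the block leaves 3 residual degrees of freedom over 8 libraries and 1 with the 4 libraries alone. How far depth limits the calls was not tested.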

Other observations

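Several called genes that the authors list only by a LOC number carry a gene symbol in RefSeq's table for the assembly Xenopus_laevis_v10.1, matched by that number. They lie outside the rule for named genes and were picked after their values were seen, so that they describe these libraries only. LOC108697692 is listed there as hes5.3.S, a further gene of the Hes repressor family, and had 11.3 and 6.80 CPM at stage 12.5, against 0.698 and 1.64 CPM at stage 11.5 (log2 fold change 3.06, SE 0.52, adjusted p = 0.0241, edgeR). LOC108716767 is listed as cfap251.L, for a protein of motile cilia, and had 12.9 and 13.0 CPM at stage 12.5, against 3.97 and 3.19 CPM at stage 11.5 (log2 fold change 1.87, SE 0.30, adjusted p = 0.0208). LOC108702930 is listed as tuba1cl.3.S, an alpha tubulin gene like LOC108701830, and had 45.6 and 14.6 CPM at stage 12.5, against 4.43 and 3.88 CPM at stage 11.5 (log2 fold change 2.66, SE 0.34, adjusted p = 0.0151). LOC496380 is listed as slc26a4l.L, a relative of the anion exchanger pendrin of ionocytes, and had 16.1 and 7.89 CPM at stage 12.5, against 4.37 and 3.04 CPM at stage 11.5 (log2 fold change 1.62, SE 0.35, adjusted p = 0.0415). LOC108714013 is listed as rbl2.L, a retinoblastoma family gene, and had 65.9 and 59.6 CPM at stage 12.5, against 21.7 and 19.0 CPM at stage 11.5 (log2 fold change 1.62, SE 0.21, adjusted p = 0.0157). In all 5 genes both stage 12.5 libraries lay above both stage 11.5 libraries.

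The genes slc26a4.L and slc26a4.S, which the authors name directly, were not called. The first had 0.0980 and 0.504 CPM at stage 12.5, against 0.107 and 0.119 CPM at stage 11.5, and the second had 0.719 and 2.54 CPM at stage 12.5, against 0.590 and 2.57 CPM at stage 11.5, with overlapping stages in both.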
